A study of Homo sapiens with 18 samples.

Results

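Open chromatin was examined at 10 transcription factor genes that recognise E-box DNA or define mesenchymal cells: TWIST1, TWIST2, TCF3, TCF4, TCF12, TCF21, SNAI1, SNAI2, ZEB1 and ZEB2. A peak of the consensus set belonged to a gene when it overlapped the gene body, as annotated in GENCODE release 44 on hg38, or the 20 kb on either side, which gave 259 of the 334857 peaks. No peak fell to more than 1 of these genes. A further 29 peaks inside HDAC9, the gene next to TWIST1, lay within 500 kb of the TWIST1 start and were kept apart from the 259.

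The data are bulk ATAC-seq libraries, in which a transposase cuts accessible DNA, from Ccd18-Co, a single established line of human colon fibroblasts. Unstimulated cells (6 libraries) were compared with cells that had received 3 pulses of a cytokine mix, in which 72 h of exposure was followed by 96 h of recovery, and then DMSO as vehicle (6 libraries), or the same pulses and then belinostat at 250 nM (6 libraries). The mix held TNF, OSM and IL-17A at 10 ng/ml and IL-1B at 0.1 ng/ml. These doses are the labels'; the study's own text gives a higher belinostat concentration for its assays and, in places, a lower one of IL-1B. The drug or vehicle was given for 5 days after 1 week of rest, and chromatin was prepared 2 weeks later. Belinostat inhibits histone deacetylases. DMSO against unstimulated cells gives the cytokine contrast, although the labels give no vehicle step for unstimulated cells, so cytokines and vehicle cannot be told apart in it. Belinostat against DMSO is the belinostat contrast, and belinostat against unstimulated cells the residual contrast. These contrasts share libraries. The labels do not say that the 6 libraries of a group came from separate cultures, so p-values measure the spread between libraries, which may be technical.

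The E-box is the hexamer CANNTG. Basic helix-loop-helix (bHLH) proteins bind it as dimers: the E proteins TCF3, TCF4 and TCF12 are broadly expressed partners, TWIST1, TWIST2 and TCF21 are tissue-restricted partners that pair with them, and the ID proteins hold E proteins in dimers that cannot bind DNA. SNAI1, SNAI2, ZEB1 and ZEB2 are zinc finger repressors that bind E-boxes such as CACCTG, best known for silencing E-cadherin in epithelial-to-mesenchymal transition. TWIST1 is required for mesoderm and cranial mesenchyme, and enhancers of TWIST1 are known within HDAC9. AP-1, the dimer of FOS and JUN proteins that many cytokines induce, binds TGANTCA.

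The sequences around the peaks on which the results turn are given first, as the central 300 bases on the plus strand of hg38, with each CANNTG and TGANTCA in capitals. The first pair opened with cytokines, in an intron of TWIST2 (chr2:238884806-238885105) and in an intron of TCF3 (chr19:1613290-1613589). Each window held 1 E-box and 0 AP-1 words.
TWIST2 intron peak: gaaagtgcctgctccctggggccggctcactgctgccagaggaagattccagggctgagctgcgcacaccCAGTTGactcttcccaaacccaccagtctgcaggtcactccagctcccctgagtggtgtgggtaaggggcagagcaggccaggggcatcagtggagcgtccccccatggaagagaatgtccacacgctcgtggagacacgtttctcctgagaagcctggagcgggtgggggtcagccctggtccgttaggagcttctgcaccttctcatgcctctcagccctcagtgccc
TCF3 intron peak: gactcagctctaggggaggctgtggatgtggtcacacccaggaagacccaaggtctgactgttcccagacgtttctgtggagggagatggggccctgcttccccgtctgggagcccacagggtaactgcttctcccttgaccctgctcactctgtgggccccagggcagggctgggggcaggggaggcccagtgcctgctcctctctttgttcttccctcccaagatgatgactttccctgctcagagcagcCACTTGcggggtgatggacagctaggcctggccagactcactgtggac
The ZEB2 window closed with belinostat (chr2:144414441-144414740, intron of ZEB2). It held 1 E-box of the form CAGATG and 1 AP-1 word.
ZEB2 intron peak: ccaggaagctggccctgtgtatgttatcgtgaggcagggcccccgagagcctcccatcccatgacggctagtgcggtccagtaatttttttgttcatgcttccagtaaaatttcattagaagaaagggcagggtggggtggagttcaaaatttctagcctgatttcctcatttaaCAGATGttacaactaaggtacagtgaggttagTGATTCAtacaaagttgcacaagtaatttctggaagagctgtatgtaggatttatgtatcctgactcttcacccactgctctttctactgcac
The HDAC9 pair changed in opposite directions under the 2 treatments. The intron window (chr7:18866679-18866978) held 6 E-boxes and 2 AP-1 words, of which 1 overlaps an E-box, and the exon window (chr7:18793019-18793318) held 1 E-box. The intron peak was chosen after its values were seen.
HDAC9 intron peak: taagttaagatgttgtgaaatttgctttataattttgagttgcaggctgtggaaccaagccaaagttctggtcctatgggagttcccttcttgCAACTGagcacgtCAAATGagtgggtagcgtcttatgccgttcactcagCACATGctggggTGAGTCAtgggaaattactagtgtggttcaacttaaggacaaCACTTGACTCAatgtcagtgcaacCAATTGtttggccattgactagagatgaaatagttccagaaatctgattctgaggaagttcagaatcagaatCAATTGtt
HDAC9 exon peak: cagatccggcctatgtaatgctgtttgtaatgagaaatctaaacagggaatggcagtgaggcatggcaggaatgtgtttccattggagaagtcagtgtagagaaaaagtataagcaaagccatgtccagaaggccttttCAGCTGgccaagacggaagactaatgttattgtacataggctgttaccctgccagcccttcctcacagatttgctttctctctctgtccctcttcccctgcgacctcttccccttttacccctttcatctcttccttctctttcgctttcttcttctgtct
The start peak of TCF3 closed in all 3 contrasts with TMM scaling, so the 250 bases upstream of its start are shown too, from RefSeq on GRCh38.p14 (chr19:1652616-1652865, minus strand, written in the direction of TCF3). These bases held 0 E-boxes and were 79.6% G or C.
TCF3 promoter: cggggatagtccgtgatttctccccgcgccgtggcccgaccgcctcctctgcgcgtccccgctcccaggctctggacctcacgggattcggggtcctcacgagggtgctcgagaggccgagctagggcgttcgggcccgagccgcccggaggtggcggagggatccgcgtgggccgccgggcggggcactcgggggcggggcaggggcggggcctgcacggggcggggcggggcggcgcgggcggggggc

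E-boxes were found in a slightly smaller share of these peaks than of peaks in general. Of the 259 member peaks, 78.0% held a CANNTG in their central 300 bases, against 82.7% of all peaks, and 15.4% held a CACCTG, against 22.9%. TGANTCA was in 18.9% of member peaks and 17.8% of all peaks. The HDAC9 peaks held CANNTG in 86.2% and TGANTCA in 24.1%. Both motifs read the same way on either strand as patterns, and a match describes the letters alone. Median GC content was 44.3% in member peaks, 40.0% in HDAC9 peaks and 49.7% in all peaks. RefSeq promoters were matched for 7 of the 10 genes, which left out TWIST1, SNAI1 and SNAI2. Of the 35116 promoters in the same table, 61.8% held a CANNTG in the 250 bases upstream, a larger share than among the 26 promoters of these 7 genes.

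The libraries held 4661678 to 11352032 fragments in peaks, of which 3869 to 9860 fell in the 259 member peaks. The belinostat libraries were the shallowest (4661678 to 6370845), against 6488975 to 8066642 with DMSO and 7077321 to 11352032 in unstimulated cells. Libraries also differed in how counts were spread over strong and weak peaks. Peaks with a mean log2 CPM (CPM, counts divided by TMM-scaled library size) of 4 or more took a median of 44.5% of the counts in unstimulated cells, 39.7% with DMSO and 37.5% with belinostat. Peaks under 0 took 6.03%, 9.50% and 10.7%. With TMM, a change in level therefore ran with strength over the whole table: the median change over all peaks (log2) was 0.13 in the cytokine contrast, 0.01 in the belinostat contrast and 0.20 in the residual contrast, while that of peaks at 4 or more was -0.37, -0.17 and -0.53. Calls were therefore also made with loess offsets, which remove from each library any trend of its counts with strength. The part of depth and of this spread in the results was not tested beyond that comparison. Of 7 fibroblast markers, 5 were at 19.6 to 76.5 CPM at their starts in unstimulated cells, with COL1A1 the highest, while DCN and LUM were at 4.85 and 4.72. These compare with 0.363 at CD3E and 1.83 at PTPRC for leukocytes, 1.56 to 3.26 for the 3 endothelial genes and 0.762 at VIL1, 2.85 at EPCAM, 5.78 at CDH1 and 16.0 at KRT8 for epithelium, so DCN and LUM lay below CDH1 and KRT8. LYZ had no peak within 3 kb of a start.

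With TMM, more member peaks closed than opened with cytokines, and the shares called with belinostat were near those of all peaks. With edgeR's quasi-likelihood test and Benjamini-Hochberg adjustment over all peaks, 7 of the 259 member peaks opened in the cytokine contrast and 30 closed (2.70% and 11.6%), where 9.51% of all peaks opened and 9.73% closed. In the belinostat contrast 1 opened and 5 closed (0.386% and 1.93%), against 0.607% and 1.75% of all peaks. In the residual contrast 16 opened and 44 closed (6.18% and 17.0%), against 16.8% and 13.7%. Of the 30 that closed with cytokines, 24 had a mean log2 CPM of 2 or more. Without unstimulated replicate 6, the cytokine counts were 4 opened and 17 closed.

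Strong peaks closed across the whole table as well. All 12 member peaks at a mean log2 CPM of 4 or more closed in the cytokine contrast, with a median log2 fold change of -0.39, and 81.8% of the 14050 peaks of that strength in the whole table closed too. In the class from 2 to 4, 12 of 37 member peaks closed, where 37.4% of all peaks did. Below 0, 4 of 79 member peaks opened, where 12.6% of all peaks did. With loess offsets, 3 member peaks opened and 0 closed in the cytokine contrast (2.00% and 1.90% of all peaks), although 29 had a negative change at an unadjusted p under 0.05 with edgeR, and DESeq2 without these offsets gave 16 closed. Loess offsets gave 3 opened and 5 closed in the belinostat contrast (0.945% and 1.51% of all peaks) and 5 opened and 19 closed in the residual contrast (3.82% and 4.92%). The 5 closed by belinostat were closed with both scalings, and so was the 1 that opened.

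**Figure D1:**
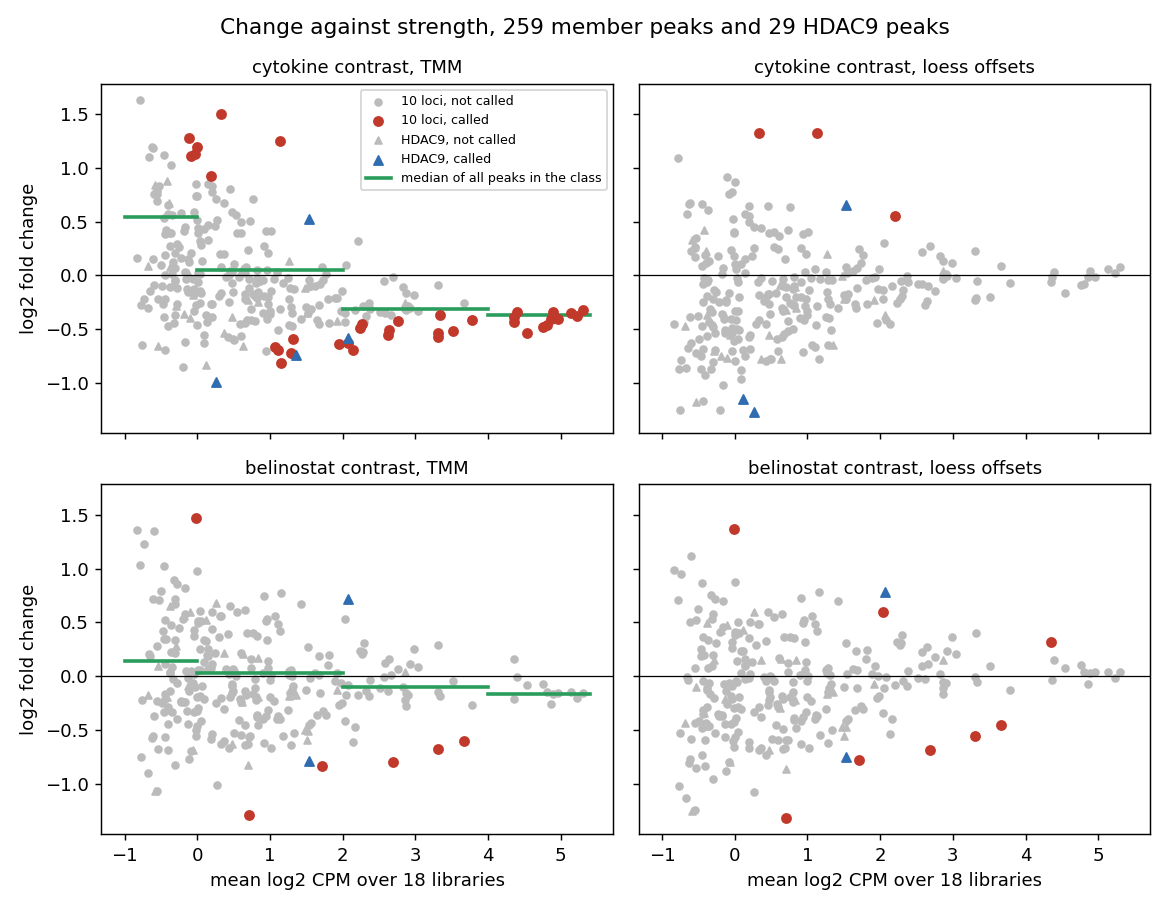
Log2 fold change of each of the 259 member peaks (circles) and 29 HDAC9 peaks (triangles) against its mean log2 CPM over 18 libraries, in the cytokine and belinostat contrasts, with TMM (left) and loess offsets (right). Coloured symbols passed an adjusted p of 0.05, and green bars are the median of all peaks of that strength. In the cytokine contrast the called strong peaks lie along the green bars with TMM and near 0 with loess offsets. In the belinostat contrast the 5 closed member peaks lie below the green bars with TMM and stay below 0 with loess offsets.

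**Figure D2:**
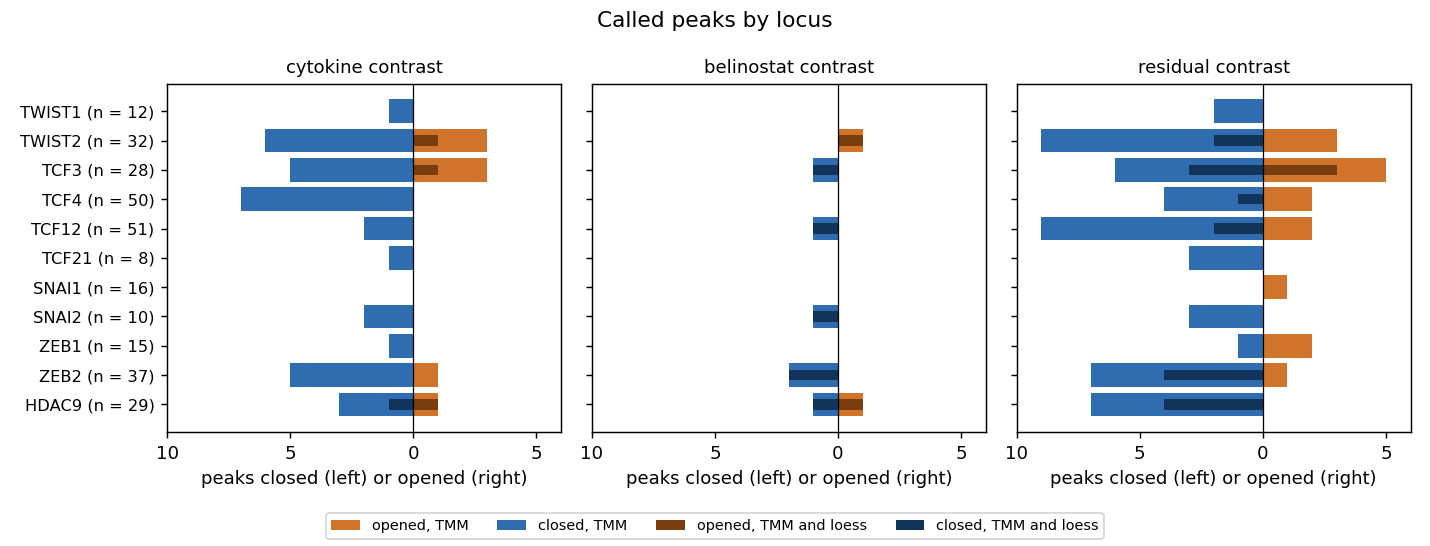
Number of called peaks at each gene, closed to the left and opened to the right, in each contrast. Wide bars give calls with TMM and narrow dark bars those shared with loess offsets. In the cytokine contrast the narrow bars are present at TWIST2, TCF3 and HDAC9 only.

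The 10 start peaks were those over an annotated transcript start, the strongest where there were several. They had log2 fold changes of -0.57 to -0.33 in the cytokine contrast with TMM, and 9 of 10 closed. SNAI1 was the exception, at a log2 change of -0.33 (SE 0.14, adjusted p 0.077). Of all peaks, 9.73% closed in that contrast. The share was 37.4% at a mean log2 CPM of 2 to 4 and 81.8% at 4 or more. Whether the start peaks closed more often than other peaks of their strength was not tested. With loess offsets 0 of 10 closed and 0 opened, 2 were lower at an unadjusted p under 0.05 in edgeR, and their log2 fold changes ran from -0.23 to 0.04. TWIST1, TCF12, SNAI2 and ZEB2 were the 4 start peaks whose 6 DMSO libraries all lay below their 6 unstimulated libraries. Per kilobase, the start peaks ranked TCF3 (33.8 CPM per kb over the 18 libraries), SNAI2 (30.3), TWIST2 (21.4), TCF21 (19.9), TCF4 (15.8), ZEB2 (14.8), TCF12 (14.1), TWIST1 (13.6), SNAI1 (8.47) and ZEB1 (7.00). The order was not the same in each group: TCF3 had 48.8 ± 8.63 CPM per kb in unstimulated cells and SNAI2 37.9 ± 5.09, where with belinostat TCF3 had 20.4 ± 5.29 and SNAI2 25.9 ± 4.90 (SD, n = 6). From TCF4 to TWIST1 neighbours in the order differed, with DMSO, by less than the larger of their SDs. The start peaks were from 308 bases (TCF3) to 3023 bases (ZEB1) wide, so the order per kilobase also depends on peak width. Within the groups, DMSO replicate 3 had the highest level in 9 of the 10 start peaks and belinostat replicate 1 in 9 of 10. These were also the libraries of their groups with the largest share of counts in peaks at 4 or more (42.7% and 42.1%).

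**Figure D3:**
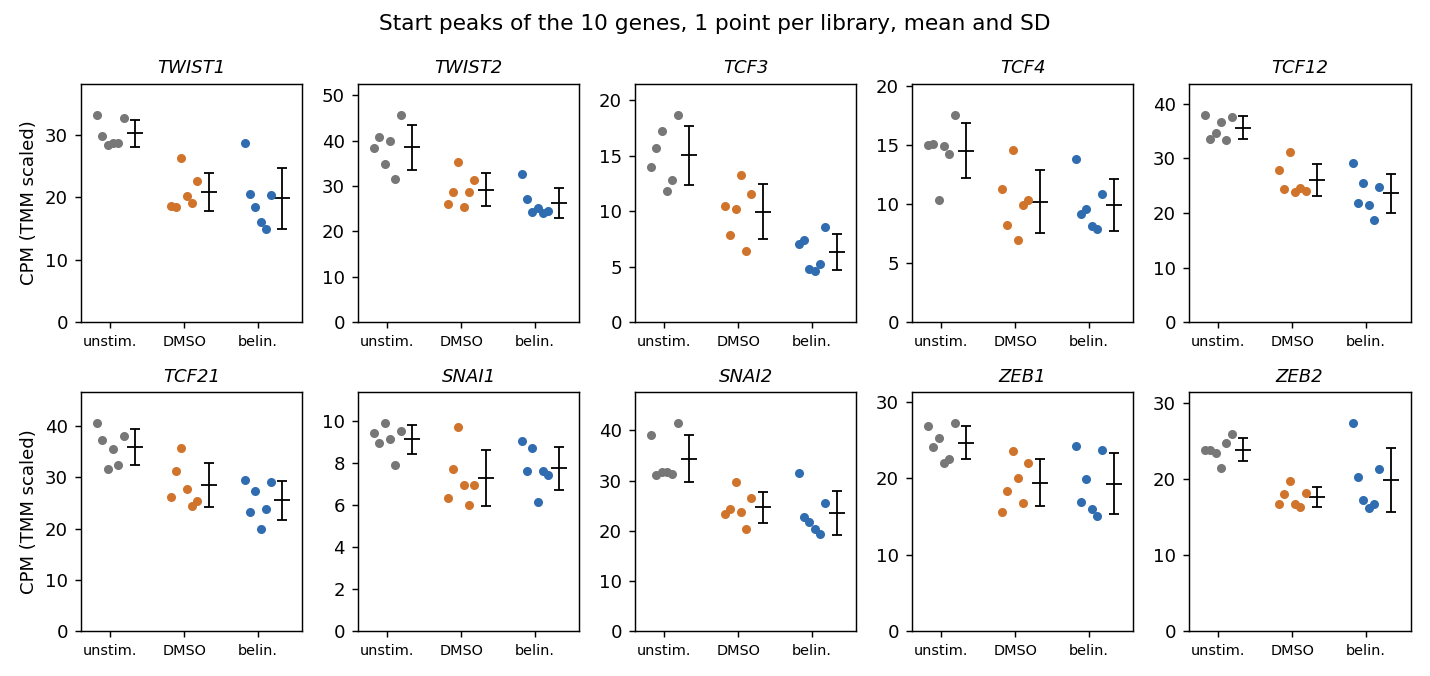
Level of each gene's start peak in CPM, with 1 point per library (6 unstimulated, 6 DMSO, 6 belinostat) and the mean and SD beside them. The DMSO and belinostat points lie mostly below the unstimulated ones at every gene, and at TCF3 the belinostat points lie below all unstimulated points.

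TWIST1, a bHLH factor of mesoderm, had 12 peaks, 1 of which closed with cytokines (8.33%, against 9.73% of all peaks). With belinostat 0 were called, by edgeR or DESeq2, and 0 had an unadjusted p under 0.05 (of all peaks 0.607% opened and 1.75% closed). Its start peak (chr7:19116403-19118140, over the first exon with its UTR and the overlapping gene ENSG00000236536) measured 28.4, 29.2 and 33.2 CPM (lowest, median and highest of 6) in unstimulated cells. The range was 18.4, 19.6 and 26.2 with DMSO and 14.8, 19.4 and 28.7 with belinostat. All DMSO libraries were below all unstimulated ones. Among the belinostat libraries only replicate 1, at 28.7, reached the unstimulated range. The peak closed in the cytokine contrast (log2 fold change -0.54, SE 0.11, adjusted p 0.000408) but with loess offsets the value was -0.16 with an adjusted p of 0.152. In the belinostat contrast it was -0.09 (SE 0.12, adjusted p 0.746), so a difference between belinostat and DMSO at the TWIST1 start was not detected. In the residual contrast the start peak closed with TMM (-0.62, adjusted p 8.9e-06), where loess offsets gave -0.09 with an adjusted p of 0.475. A second TWIST1 peak, 9971 bases inside the annotated gene, closed in the residual contrast at -0.44 with TMM (adjusted p 0.0371) and stood at -0.10 with loess offsets. The annotated gene spans 96.6 kb, from its start toward HDAC9, so peaks counted to TWIST1 need not lie close to its start.

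Inside HDAC9, 1 of 29 peaks opened and 3 closed with cytokines (3.45% and 10.3%, against 9.51% and 9.73% of all peaks). With belinostat 1 opened and 1 closed (3.45% each, against 0.607% and 1.75% of all peaks). These included a pair that moved in opposite directions under the 2 treatments. The intron peak (chr7:18866639-18867017, 250808 bases from the TWIST1 start) had 2.08, 2.23 and 3.38 CPM in unstimulated cells, 2.31, 3.59 and 5.16 with DMSO and 1.04, 2.44 and 2.73 with belinostat. The DMSO libraries were the highest, and their range overlapped both other groups. It opened with cytokines (0.52, SE 0.20, adjusted p 0.0494) and closed with belinostat (-0.79, SE 0.22, adjusted p 0.0235), both also with loess offsets. Both calls are close to the limit: leaving out single libraries ended the cytokine call in 8 of 12 cases and the belinostat call in 4 of 12, and in the cytokine contrast adjusted p ran from 0.00623 to 0.162 over the alternatives.

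The HDAC9 exon peak (chr7:18792893-18793443, 324468 bases from the TWIST1 start, outside any UTR) went the other way. It had 3.27, 4.21 and 6.08 CPM in unstimulated cells, 2.02, 3.02 and 3.88 with DMSO and 2.86, 5.05 and 7.41 with belinostat. DMSO was the lowest group, with overlap on both sides. It closed with cytokines (-0.58, SE 0.19, adjusted p 0.0204; -0.37 and 0.237 with loess offsets) and opened with belinostat (0.72, SE 0.19, adjusted p 0.0190; 0.78 and 0.00494 with loess offsets). Leaving out single libraries ended the belinostat call in 5 of 12 cases, with adjusted p up to 0.161. The DMSO libraries enter both contrasts with opposite sign, so the 2 values of a peak are not independent. Neither passed the test in the residual contrast, at -0.27 (SE 0.23, adjusted p 0.396) for the intron peak and 0.13 (SE 0.18, adjusted p 0.602) for the exon peak.

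The other HDAC9 peaks closed with cytokines lay far from TWIST1. The peak at chr7:18638598-18639009, 478833 bases away, fell from 2.53, 3.51 and 4.35 CPM in unstimulated cells to 1.31, 1.80 and 3.21 with DMSO and 1.00, 1.91 and 2.40 with belinostat. Only the belinostat group was free of overlap with unstimulated cells. It closed at -0.74 on the log2 scale (SE 0.21, adjusted p 0.00714; -0.65 and 0.0518 with loess offsets) in the cytokine contrast and -0.92 (SE 0.22, adjusted p 0.00081) in the residual contrast. Beside it, the peak at chr7:18639076-18639460 had 2.65, 3.56 and 4.54 CPM in unstimulated cells and 1.29, 1.66 and 2.81 with belinostat, and closed in the residual contrast (-0.94, SE 0.22, adjusted p 0.000472). The weak peak at chr7:18655582-18655888 closed at -0.99 (SE 0.34, adjusted p 0.0276), and at -1.27 with loess offsets (adjusted p 0.014); it was named after its values were seen. Between belinostat and unstimulated cells 7 HDAC9 peaks closed and 0 opened, where 13.7% and 16.8% of all peaks did. The 7 were 24.1% of the HDAC9 peaks, and 4 of them closed also with loess offsets. The strongest HDAC9 peak (chr7:18890820-18891703, 6.87, 7.94 and 8.64 CPM in unstimulated cells) was not called in any contrast, with log2 fold changes between -0.26 and 0.04.

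**Figure D4:**
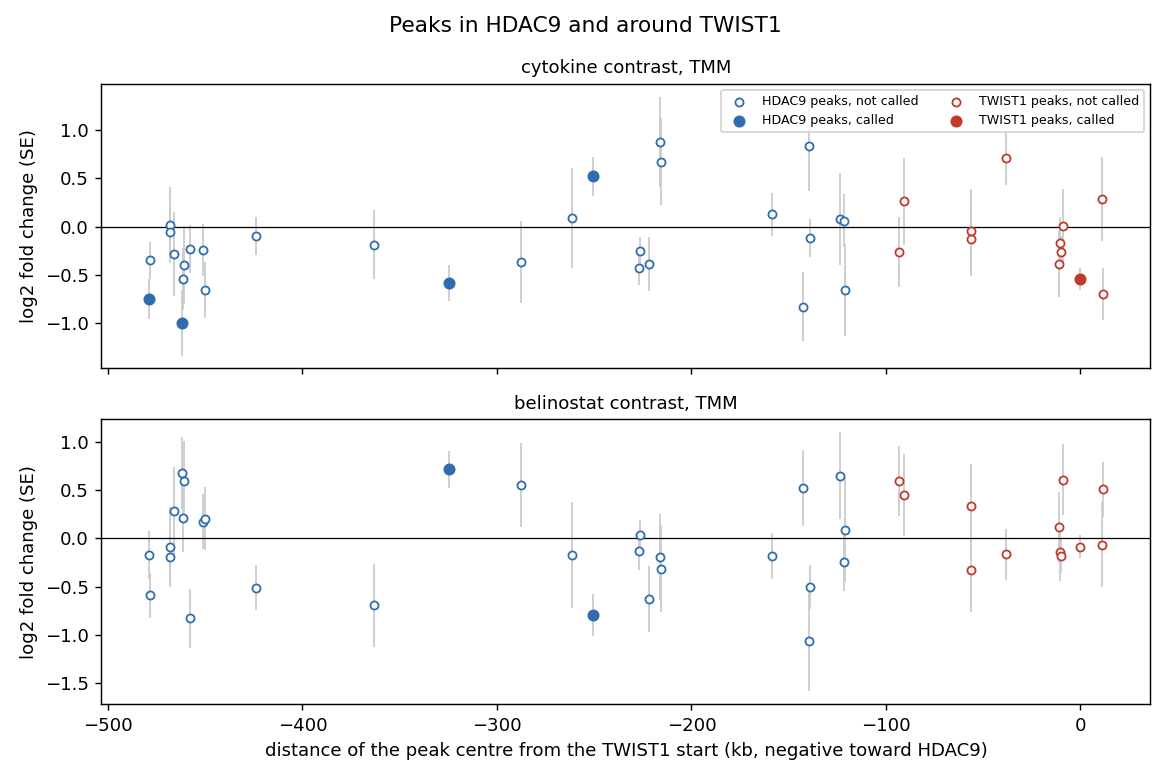
Log2 fold change with its SE, with TMM, of the 29 HDAC9 peaks (blue) and the 12 TWIST1 peaks (red) against distance from the TWIST1 start in kb, in the cytokine (top) and belinostat (bottom) contrasts. Filled points passed an adjusted p of 0.05: the intron peak, 250808 bases from the start, is above 0 at the top and below it at the bottom, and the exon peak, 324468 bases away, is the reverse.

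TWIST2, the close relative of TWIST1 active in dermal and bone mesenchyme, had 32 peaks. With cytokines 3 opened and 6 closed (9.38% and 18.8%, against 9.51% and 9.73% of all peaks). With belinostat 1 opened (3.1%, against 0.607%). The intron peak printed above (chr2:238884677-238885233, 36870 bases into the gene from the start) had 0.00, 0.642 and 0.956 CPM in unstimulated cells. It had 1.03, 1.75 and 2.48 with DMSO and 0.148, 1.13 and 2.22 with belinostat. Every DMSO library lay above every unstimulated library. The peak opened by 1.50 on the log2 scale (SE 0.33, adjusted p 0.000652), and by 1.3 with loess offsets (adjusted p 0.00861), and the call held in all 20 alternatives. In the belinostat contrast its log2 fold change was -0.63 (SE 0.30, adjusted p 0.283). Only 150 fragments over the 18 libraries support this peak.

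The remaining TWIST2 calls were less firm. A pair of weak peaks outside the gene, at chr2:238836124-238836517 and chr2:238927864-238928170, opened with cytokines by 1.27 (SE 0.42) and 1.20 (SE 0.38) with TMM and by 0.92 and 0.87 with loess offsets, where neither passed (adjusted p 0.185 and 0.164). A peak near the end of the last intron (chr2:238909657-238909811) had 0.268, 0.376 and 1.21 CPM with DMSO and 0.802, 1.33 and 2.03 with belinostat, and opened in the belinostat contrast by 1.47 (SE 0.38, adjusted p 0.0115). Its unstimulated libraries, at 0.159, 0.554 and 1.13, overlapped both. Without belinostat replicate 3 the adjusted p was 0.0526. The strong peaks of the gene were the start (31.5, 39.2 and 45.7 CPM unstimulated) and intron peaks at chr2:238864125-238865007 (38.0, 48.8 and 53.4) and chr2:238895565-238896362 (40.1, 47.4 and 51.6). In the cytokine contrast they closed by 0.40, 0.33 and 0.38 on the log2 scale with TMM, but their values with loess offsets were -0.02, 0.08 and 0.02. The weak peak at chr2:238838650-238838827 opened in the residual contrast (1.90, SE 0.55, adjusted p 0.00539), on 53 fragments in all, a call lost with loess offsets (1.18, adjusted p 0.167) and without belinostat replicate 4.

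TCF3 encodes the E proteins E12 and E47, and its start peak had the smallest adjusted p of the 259 in the residual contrast. Of its 28 peaks, 3 opened and 5 closed with cytokines (10.7% and 17.9%, against 9.51% and 9.73% of all peaks). With belinostat 0 opened and 1 closed (3.57%, against 1.75% of all peaks). In the residual contrast 5 opened and 6 closed (17.9% and 21.4%, against 16.8% and 13.7%). The start peak (chr19:1652430-1652737, over the first exon and 5′ UTR) had 11.8, 14.8 and 18.7 CPM in unstimulated cells, 6.41, 10.3 and 13.3 with DMSO and 4.58, 6.14 and 8.59 with belinostat. The groups stepped down in that order, and every belinostat library was below every unstimulated one. It closed in the cytokine contrast by 0.57 on the log2 scale (SE 0.13, adjusted p 0.00128), in the belinostat contrast by 0.68 (SE 0.15, adjusted p 0.00227) and in the residual contrast by 1.25 (SE 0.15, adjusted p 1.73e-12), to 0.42 of the unstimulated level. With loess offsets the cytokine value was -0.23 with an adjusted p of 0.212, while the other pair held at -0.56 (adjusted p 0.00565) and -0.78 (adjusted p 1.28e-06). The belinostat call held in all 20 alternatives, with adjusted p from 0.000319 to 0.027.

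The neighbours of the TCF3 start followed it in the residual contrast. The peak 523 bases into the gene (chr19:1652006-1652178, first intron) fell from 5.50, 6.61 and 8.05 CPM in unstimulated cells to 2.33, 3.96 and 5.38 with DMSO and 2.15, 2.77 and 3.14 with belinostat. Neither treated group overlapped the unstimulated one. It closed in the residual contrast, at -1.31 on the log2 scale (SE 0.18, adjusted p 2.77e-09) and at -0.99 with loess offsets (adjusted p 1.35e-05). The peak 805 bases inside (chr19:1651701-1651919, named after its values were seen) was at -0.80 (SE 0.18, adjusted p 0.000226), or -0.49 under loess offsets (adjusted p 0.0488). The strong peak just upstream (chr19:1652840-1653511), at 31.5, 37.5 and 43.2 CPM in unstimulated cells and 20.2, 22.3 and 28.1 with belinostat, closed by 0.67 on the log2 scale with TMM, but stood at -0.09 with loess offsets (adjusted p 0.432). In the belinostat contrast the first intron peak at 523 bases was -0.62 (SE 0.20, adjusted p 0.0738).

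Other TCF3 peaks opened. The intron peak printed above (chr19:1613078-1613801, 39176 bases into the gene) had 0.322, 1.51 and 1.82 CPM in unstimulated cells, 2.06, 3.23 and 3.76 with DMSO and 0.401, 2.66 and 3.00 with belinostat. All DMSO libraries were above all unstimulated ones, and belinostat replicate 1, at 0.401, was far below the other belinostat libraries. It opened in the cytokine contrast by 1.25 on the log2 scale (SE 0.24, adjusted p 0.000122; 1.33 with loess offsets) and in the residual contrast by 0.85 (SE 0.27, adjusted p 0.0101), with both calls held in all 20 alternatives. The belinostat contrast gave -0.39 (SE 0.22, adjusted p 0.376). A peak over an exon with UTR (chr19:1630255-1630678) had 0.130, 0.694 and 1.08 CPM in unstimulated cells and 0.802, 1.88 and 2.72 with belinostat, with overlap, and opened in the residual contrast by 1.45 (SE 0.32, adjusted p 0.000213), and the one beside it (chr19:1630862-1631118) opened by 1.22 (SE 0.36, adjusted p 0.00677; 0.119 with loess offsets). The 20 kb flank of TCF3 reaches UQCR11, where a peak (chr19:1599344-1600058) opened by 1.01 (SE 0.26, adjusted p 0.00166), and where the strongest peak of the window lies (chr19:1605188-1606420). Both lie in UQCR11 and outside TCF3.

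TCF4, the E protein with many alternative starts, had 50 peaks, of which 7 closed with cytokines (14.0%, where 9.73% of all peaks closed) and 0 opened. With belinostat 0 were called by edgeR or DESeq2, and 5 had an unadjusted p under 0.05 with edgeR (of all peaks 0.607% opened and 1.75% closed). The strongest, at an internal start 265725 bases from the canonical one (chr18:55322103-55322831), had 10.4, 15.0 and 17.6 CPM in unstimulated cells, 6.93, 10.1 and 14.6 with DMSO and 7.90, 9.39 and 13.8 with belinostat. The groups overlapped. It closed by 0.52 on the log2 scale with TMM (SE 0.13, adjusted p 0.00316), and stood at -0.20 with loess offsets (adjusted p 0.255). The intron peak at chr18:55487786-55488745 closed in the residual contrast (-0.69, SE 0.16, adjusted p 0.000315; -0.31 and 0.163 with loess offsets). With loess offsets 0 TCF4 peaks were called in the cytokine contrast, where 5 had an unadjusted p under 0.05.

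TCF12 encodes the E protein HEB. Of its 51 peaks, 2 closed with cytokines (3.92%, against 9.73% of all peaks) and 1 with belinostat (1.96%, against 1.75%). Its start peak (chr15:56918010-56920017) fell from 33.3, 35.7 and 38.0 CPM in unstimulated cells to 23.8, 24.5 and 31.1 with DMSO, without overlap, and had 18.7, 23.3 and 29.1 with belinostat. The difference on the log2 scale was -0.46 (SE 0.11, adjusted p 0.00148) with TMM and -0.08 (adjusted p 0.504) with loess offsets. A weak peak in a late intron (chr15:57283883-57284359) had 0.883, 2.00 and 2.67 CPM in unstimulated cells, 1.02, 1.89 and 2.42 with DMSO and 0.370, 0.704 and 1.04 with belinostat. Unstimulated and DMSO libraries covered the same range, and belinostat libraries overlapped them at the lowest values alone. It closed with belinostat by 1.29 on the log2 scale (SE 0.32, adjusted p 0.00684) and by 1.33 in the residual contrast (SE 0.32, adjusted p 0.000582), held in all 20 alternatives. In the cytokine contrast it was -0.03 (SE 0.25, adjusted p 0.938).

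TCF21, a bHLH factor of visceral and cardiac mesenchyme, had 8 peaks with 1 closed with cytokines (12.5%, against 9.73% of all peaks). With belinostat 0 were called by edgeR or DESeq2, and 0 had an unadjusted p under 0.05 (of all peaks 0.607% opened and 1.75% closed). Its start peak (chr6:133888690-133890196, also over the antisense gene TARID) had 31.5, 36.4 and 40.5 CPM in unstimulated cells and 24.3, 27.0 and 35.8 with DMSO. It closed by 0.34 on the log2 scale with TMM (SE 0.11, adjusted p 0.0189), and its value with loess offsets was 0.04 (adjusted p 0.733). With belinostat it had 19.9, 25.6 and 29.5 CPM, all below the unstimulated libraries, and the residual log2 fold change of -0.50 with TMM became 0.07 with loess offsets.

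SNAI1 and SNAI2 encode the Snail and Slug repressors. SNAI1 had 16 peaks and 0 calls by edgeR or DESeq2 in the cytokine and belinostat contrasts, where 2 and 3 had an unadjusted p under 0.05 with edgeR. Of all peaks, 9.51% opened and 9.73% closed with cytokines, and 0.607% and 1.75% with belinostat. Its start peak (chr20:49982337-49983286) had 7.88, 9.26 and 9.88 CPM in unstimulated cells, 5.98, 6.94 and 9.73 with DMSO and 6.15, 7.62 and 9.03 with belinostat, with overlap throughout. Its strongest peak (chr20:49989174-49990709), downstream of the gene, was at -0.09 (SE 0.13) and -0.15 (SE 0.14) in the cytokine and belinostat contrasts. A weak distal peak (chr20:50001872-50002168) opened in the residual contrast with TMM (1.26, SE 0.41, adjusted p 0.0135; 0.224 with loess offsets).

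SNAI2 had 10 peaks, of which 2 closed with cytokines (20.0%, against 9.73% of all peaks) and 1 with belinostat (10.0%, against 1.75%). The start peak (chr8:48921254-48922161) fell from 31.0, 31.7 and 41.4 CPM to 20.4, 24.0 and 29.6 with DMSO, without overlap (-0.48, SE 0.11, adjusted p 0.00123; -0.09 and 0.421 under loess offsets). The distal peak at chr8:48904561-48905069, 16614 bases from the start on the downstream side, had 2.84, 3.68 and 4.51 CPM in unstimulated cells, 2.54, 4.17 and 4.57 with DMSO and 0.585, 2.36 and 2.81 with belinostat. It closed with belinostat by 0.84 on the log2 scale (SE 0.21, adjusted p 0.0105; 0.0187 with loess offsets). The lowest value came from belinostat replicate 2, and without that library the adjusted p was 0.0834.

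ZEB1 and ZEB2 had 15 and 37 peaks, of which 6.67% and 13.5% closed with cytokines, against 9.73% of all peaks. ZEB1 had 0 opened and 1 closed in the cytokine contrast, its start peak (chr10:31318195-31321217), which had 22.1, 24.7 and 27.2 CPM in unstimulated cells and 15.6, 19.3 and 23.6 with DMSO. The change was -0.34 on the log2 scale (SE 0.12, adjusted p 0.0242) with TMM and 0.03 with loess offsets, and it lost the call in 5 of 12 fits that left out 1 library. A weak distal peak (chr10:31543000-31543182) had 0.00, 0.114 and 0.159 CPM in unstimulated cells and 0.401, 0.563 and 1.48 with belinostat, on 42 fragments in all, and opened in the residual contrast (2.67, SE 0.64, adjusted p 0.000697; 0.0688 with loess offsets). Belinostat gave 0 calls at ZEB1 by edgeR or DESeq2, and 3 peaks had an unadjusted p under 0.05 with edgeR (of all peaks 0.607% opened and 1.75% closed).

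ZEB2 had 2 peaks called with belinostat, both closed (5.41%, against 1.75% of all peaks), and with loess offsets its start peak opened as well. The intron peak printed above (chr2:144414213-144414967) had 5.39, 7.72 and 9.87 CPM in unstimulated cells, 5.78, 7.36 and 10.4 with DMSO and 2.34, 4.45 and 5.42 with belinostat. Unstimulated and DMSO libraries covered the same range, and every belinostat library lay below every DMSO library. It closed by 0.80 on the log2 scale (SE 0.17, adjusted p 0.000743; -0.69 and 0.00269 with loess offsets). In the cytokine contrast it was -0.02 (SE 0.15, adjusted p 0.944).

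The other ZEB2 peak (chr2:144430459-144431166, over an exon with UTR of an alternative transcript) had 13.0, 16.3 and 18.4 CPM in unstimulated cells, 12.2, 13.6 and 15.7 with DMSO and 6.64, 9.21 and 12.4 with belinostat. Belinostat libraries were lowest, and 1 of them reached the DMSO range. It closed with belinostat by 0.60 on the log2 scale (SE 0.13, adjusted p 0.00222) and by 0.85 in the residual contrast (SE 0.13, adjusted p 8.34e-08), and both belinostat calls at ZEB2 held in all 20 alternatives. The ZEB2 start peak (chr2:144516464-144517839) did not follow: it had 16.3, 17.3 and 19.8 CPM with DMSO and 16.2, 18.7 and 27.3 with belinostat, which is 0.16 on the log2 scale (SE 0.12, adjusted p 0.505) with TMM and 0.32 (adjusted p 0.0075) with loess offsets. It had closed with cytokines with TMM (-0.43, SE 0.11, adjusted p 0.00457; -0.06 and 0.655 with loess offsets). A weak intron peak (chr2:144370984-144371217) opened with cytokines by 1.11 (SE 0.39, adjusted p 0.0312), a call lost with loess offsets and in 7 of 12 fits that left out 1 library.

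**Figure D5:**
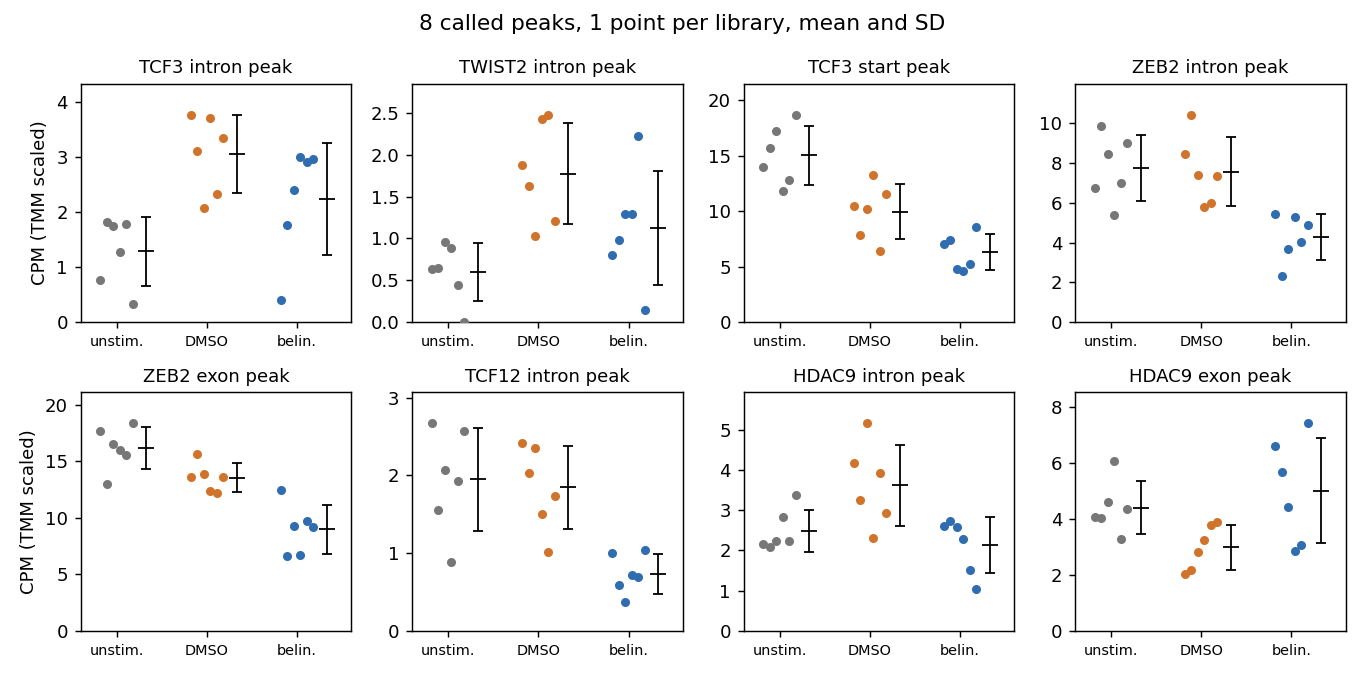
Level in CPM of 8 called peaks, with 1 point per library and the mean and SD beside them. The TCF3 and TWIST2 intron peaks are highest with DMSO, the TCF3 start, ZEB2 and TCF12 peaks are lowest with belinostat, and the HDAC9 pair is highest and lowest with DMSO.

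Counts were summed over all peaks of a gene and its flanks, and TMM factors were computed anew from the sums of all gene loci. Changes of loci and of single peaks are therefore not on the same scale. Against all loci the genes moved little. With the factors of the peaks instead, the mean level was lower with DMSO than in unstimulated cells at every gene. It went from 8.39 to 6.35 CPM per kb at TWIST1 and from 5.28 to 5.02 at SNAI1. Of 19573 gene loci tested, 21.0% were higher and 15.9% lower in the cytokine contrast, 2.63% higher and 5.37% lower in the belinostat contrast, and 28.7% higher and 27.3% lower in the residual contrast. Of the 10 genes, 0 were higher or lower in the first pair of contrasts by edgeR or DESeq2, where their log2 fold changes ran from -0.17 to 0.16 and from -0.10 to 0.11. At an unadjusted p, TWIST1 and SNAI1 were under 0.05 with cytokines (0.0284 and 0.0372) and TCF3 with belinostat (0.0282). TWIST1 measured 4.86 ± 0.07 log2 CPM in unstimulated cells, 4.68 ± 0.13 with DMSO and 4.75 ± 0.19 with belinostat (SD, n = 6 each), a cytokine difference of -0.17 (SE 0.07, adjusted p 0.0687) that was -0.20 with an adjusted p of 0.0473 with loess offsets. In the residual contrast SNAI1 was higher by 0.22 (SE 0.07, adjusted p 0.0163), TCF3 lower at -0.13 (SE 0.04, adjusted p 0.0135) and TWIST2 lower at -0.11 (SE 0.03, adjusted p 0.00696). With loess offsets none of these 3 passed, at 0.14, -0.03 and 0.0019, and TCF3 stood at 0.0232 with flanks of 50 kb. With TMM factors from 10 kb bins the median of all loci was -0.16 in the cytokine contrast, and 8 of the 10 genes were lower there. The share of all loci lower with these factors is not given here, so this count cannot be read as a result about these genes. The HDAC9 row was at -0.01 (SE 0.05) and -0.01 (SE 0.05) in the cytokine and belinostat contrasts. A lower count in a bulk library can come from fewer cells with the site open or from less opening per cell, and these cannot be told apart.

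The inhibitors of E proteins were the first group of related genes examined, on the same locus sums. Of ID1, ID2, ID3 and ID4, 2 were higher with belinostat and 0 lower, where 2.63% and 5.37% of all loci were. Their median log2 fold change was 0.11, against 0.01 for all loci. The 2 were ID3 at 0.18 (SE 0.04, adjusted p 0.0108) and ID2 at 0.13 (SE 0.04, adjusted p 0.0482). In the residual contrast ID1, ID2 and ID3 were higher, at 0.09, 0.14 and 0.10, and with loess offsets also. With TMM 28.7% of all loci were higher in that contrast. In the cytokine contrast 0 were higher and ID4 was lower (-0.13, SE 0.05, adjusted p 0.0377), a call lost with loess offsets (adjusted p 0.0603).

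Of 8 other bHLH genes listed for mesenchyme, 3 were higher and 1 lower with cytokines, where 21.0% and 15.9% of all loci were. The median was 0.16 against -0.01 for all loci, and all 4 called genes were also called with loess offsets. TCF15, a paraxial mesoderm factor, rose by 0.95 (SE 0.22, adjusted p 0.00219), HAND2, of heart and limb mesenchyme, by 0.30 (SE 0.06, adjusted p 0.000802) and SCX, the tendon factor scleraxis, by 0.24 (SE 0.07, adjusted p 0.0108). MSC, the repressor musculin, fell by 0.18 on the log2 scale (SE 0.05, adjusted p 0.0125). Belinostat gave 0 higher and 0 lower by edgeR or DESeq2, and 2 genes, HAND1 and FERD3L, had an unadjusted p under 0.05.

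Of 14 partners and targets, 1 was higher and 4 lower with cytokines, where 21.0% and 15.9% of all loci were. The median was -0.06, against -0.01 for all loci. PRRX1, a homeobox factor of limb and fibroblast mesenchyme, rose by 0.45 (SE 0.07, adjusted p 8.04e-05). FOXC2, PDGFRB, PDGFRA and VIM were lower, at -0.19, -0.15, -0.11 and -0.12, and FOXC2 and PDGFRB passed with loess offsets too. With belinostat PRRX2, the paralogue of PRRX1, was higher by 0.27 (SE 0.04, adjusted p 0.000404) and CTBP1, a corepressor of ZEB proteins, lower at -0.16 (SE 0.03, adjusted p 0.00192). Of all loci, 2.63% were higher and 5.37% lower with belinostat. CDH1, the E-cadherin gene that Snail and ZEB proteins repress, was not called in any contrast.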

How the data were processed

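Accessible chromatin of Ccd18-Co was profiled in 18 bulk ATAC-seq libraries. Per the study's methods, the authors trimmed the reads, ran the ENCODE pipeline for ATAC-seq against hg38, called peaks with MACS2, joined the peaks of all conditions and counted fragments with csaw outside blacklisted regions. The authors deposited raw counts per consensus peak and library, with no normalization. All count columns matched a library title. The labels give no batch. The names of the count columns hold a code beginning with L that is unevenly spread over the groups. Its meaning is not given, and its part in the results was not tested. Background reads were not used here, so the authors' background bins were replaced by TMM factors from the peaks.

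Counts were tested with edgeR 4.0.16 (glmQLFit, glmQLFTest) in R 4.3.3, with 1 mean per group over all 18 libraries, with the Benjamini-Hochberg adjustment taken across all 334857 peaks. Peaks passing an adjusted p of 0.05 are described as opened or closed by their sign. The authors' filter of an average log2 CPM over -3 removed no peak. Level values are CPM with TMM factors, and log2 CPM values use a prior count of 2. Counts were also summed per protein-coding gene over its body and 20 kb flanks. In all, 19573 such loci were tested in the same way, with TMM factors computed anew from the sums. The test was checked on simulated data in which a small set of peaks changed and no trend with strength was put in. That check does not cover the trend with strength seen here. Starts of peaks are counted from 1.

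Groups came from the sample titles. The members, lists and tests were chosen with earlier results of these data known. Named were all members and, for each, the start peak, the strongest peak and the called peak with the smallest p per contrast, and over all members the 5 called peaks with the smallest p in each direction of each contrast. Peaks named beyond that rule are said to be. Alternatives were loess offsets, library totals, DESeq2 size factors, TMM of 10 kb bins, the DESeq2 1.42.0 Wald test, a filter at an average log2 CPM of 0, a replicate block, only the compared groups, each library left out, flanks of 3 and 50 kb and an adjusted p under 0.01. With 3869 to 9860 fragments per library over the 259 peaks, 78 of the 259 had fewer than 100 fragments over all libraries. No pair of libraries within a group held identical counts, and none was merged. Chi-square per degree of freedom between libraries of a group ran from 1.02 to 1.26 in unstimulated cells. It ran from 1.09 to 1.95 with DMSO and from 1.03 to 1.99 with belinostat. The closest pairs thus differed by little more than counting noise.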

Additional observations from a re-analysis of the deposited data

Results flagged for a closer look

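In 10 of the 150 groups of 6 libraries examined (the 11 locus sums and 39 named peaks, each in 3 groups), 1 library lay apart from the other 5 by Dixon's criterion for 6 samples (the gap to the nearest library over the whole range), where chance flags about 1 in 20. The values are log2 CPM.

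For locus sums, unstimulated replicate 3 was at 6.22 for TCF4, with the others at 6.39 to 6.49, and belinostat replicate 6 at 4.33 for SNAI1, with the others at 4.69 to 4.87. At the TCF3 intron peak from 1613078, belinostat replicate 1 was at -0.54, with the others at 1.03 to 1.72. At the SNAI2 peak from 48904561, belinostat replicate 2 was at -0.20 and the others at 1.10 to 1.63, and the belinostat call at that peak was lost without it. At the TWIST2 peak from 238884677, unstimulated replicate 6 held no fragment (-1.81, others -0.45 to 0.31), and the cytokine call held without it. At the TWIST2 peak from 238909657, DMSO replicate 1 was at 0.58 and the others at -0.85 to -0.47. At the HDAC9 peak from 18639076, DMSO replicate 5 was at 1.12 and the others at 1.58 to 1.75. The remaining 3 were at weak peaks. Unstimulated replicate 2 was at -1.27 at the TCF3 peak from 1630255 (others -0.12 to 0.45), DMSO replicate 3 at -1.81 at the SNAI1 peak from 50001872 (others -0.42 to 0.29) and belinostat replicate 3 at 0.82 at the ZEB1 peak from 31543000 (others -0.54 to -0.20).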

How the results depend on the processing

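The count of member peaks closed by belinostat was 7 with flanks of 50 kb and 4 to 6 in the other alternatives run. Other counts moved. With loess offsets the peaks opened and closed were 3 and 0 in the cytokine contrast, 3 opened in the belinostat contrast, and 5 and 19 in the residual contrast; with library totals they were 17 and 7, 4 opened, and 37 and 22; with the DESeq2 Wald test they were 3 and 16 with cytokines and 0 opened with belinostat. Flanks of 50 kb gave 17 opened with cytokines, 2 opened with belinostat and 35 opened in the residual contrast, where flanks of 3 kb gave 10 and a filter at an average log2 CPM of 0 gave 9. An adjusted p under 0.01 left 2 opened and 14 closed with cytokines, 0 opened with belinostat and 7 opened in the residual contrast. Leaving out 1 library gave 4 to 8 opened and 17 to 36 closed with cytokines, the lowest of each without unstimulated replicate 6, 0 to 3 opened and 4 to 6 closed with belinostat, and 11 to 20 opened and 36 to 54 closed in the residual contrast.

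For the 10 locus sums, the cytokine contrast gave 1 higher with the replicate block, with only the 2 compared groups and with flanks of 50 kb, and 1 lower with loess offsets and with only the 2 compared groups. TMM factors from 10 kb bins gave 8 lower in the cytokine and 8 lower in the residual contrast, where the median of all loci was -0.16 and -0.21. In the residual contrast 0 were higher with loess offsets, with TMM of 10 kb bins and with flanks of 3 kb, and the number lower was 0 with loess offsets, 1 with library totals and 1 with flanks of 50 kb. Leaving out 1 library gave 0 to 1 lower with cytokines and 0 to 1 higher in the residual contrast, and 0 called with belinostat. Scalings shifted all peaks: their median log2 fold change with library totals was 0.34, 0.10 and 0.50 in the cytokine, belinostat and residual contrasts.

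Directions reversed with loess offsets for strong peaks and 1 locus, to values near 0. In the cytokine contrast these were the TWIST2 peaks from 238864125 (0.0771) and 238895565 (0.0201) and the TCF3 peak from 1605188 (0.0551) with the start peaks of TCF21 (0.0446) and ZEB1 (0.0270). In the residual contrast they were the TWIST2 start peak (0.0169), the TWIST2 peaks from 238864125 (0.12) and 238895565 (0.00531), the TCF3 peak from 1605188 (0.10), the start peaks of TCF21 (0.0702), SNAI2 (0.00848) and ZEB1 (0.18), and the TWIST2 locus (0.00189). The TCF3 locus reversed to 0.0232 in the residual contrast with flanks of 50 kb. Loess offsets remove a trend with strength by construction, and the source of that trend was not tested. For the TCF3 locus the cause was not tested either.

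Replicate numbers did not pair the libraries: the correlation of the deviations of libraries with the same number was -0.04 to 0.07 in the cytokine contrast, -0.20 to 0.03 in the belinostat contrast and -0.02 to 0.10 in the residual contrast, and 2, 0 and 3 of 6 numbers correlated best with their own. With the replicate block, the count of member peaks and loci stayed within 1.5 times the value without it apart from the locus given above, and the call at the HDAC9 intron peak from 18866639 in the cytokine contrast was lost. Depth limits the weak peaks: 78 of 259 had fewer than 100 fragments in all.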
